A study of Mus musculus with 8 samples.

Results

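Cytosolic ribosomal protein genes were taken from the gene table by name. Members were protein-coding genes called Rpl or Rps with a number and at most a suffix a, l, x or y, together with Rplp0, Rplp1, Rplp2 and Rpsa. Kinases of the Rps6k family and mitochondrial ribosomal proteins were left out. The rule gave 81 of 56980 genes, 49 of the large and 32 of the small subunit, on 19 chromosomes.

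Tregs, regulatory T cells that restrain other immune cells, were sorted by flow cytometry from the peripheral blood of male C57BL/6j mice, bought at 8 weeks of age. The study defined Tregs as CD4+CD25+ cells for its co-culture assay of suppression, and its methods name no markers for the RNA-seq sort. HADA mice, the group for high-altitude de-acclimatization, lived for 28 days at low pressure equal to 6000 m of altitude and were then returned to normoxia. Control mice were kept in normoxia. RNA-seq libraries were made with a low-input cDNA kit, 4 per group, and the day of sorting after the return was not stated for them.

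Each ribosome joins a small subunit, which reads the mRNA, to a large subunit, which forms the peptide bonds, and most of their proteins are present in a single copy per ribosome. Transcripts of ribosomal proteins are among the most abundant mRNAs of a growing cell, and most begin with a C followed by a run of pyrimidines, the TOP motif, through which mTOR signalling and Larp1 set their translation together. T cells raise ribosome production when they are activated.

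Total counts were 28240337, 22929193, 25230994 and 26590026 in HADA replicates 1 to 4. They were 1477431, 14452433, 22584062 and 21587245 in control replicates 1 to 4. Control replicate 1 was by far the shallowest library, and a floor of 3 counts stood for 1.86 CPM there against 0.118 CPM in HADA replicate 1. CPM are counts scaled by TMM to a common library size, a method that sets library sizes from the genes that change least. Nothing in the sources used here says that the replicates came from separate animals, and the p-values then measure only the spread between these libraries.

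The members took 5.06%, 4.72%, 4.06% and 5.28% of all counts in HADA replicates 1 to 4. They took 3.41%, 0.410%, 0.950% and 1.14% in control replicates 1 to 4. The groups did not overlap, but control replicate 1 stood apart from the other control libraries and lay close to HADA replicate 3. Its 95% Wilson interval, 3.39% to 3.44%, was the widest of the 8 and covers counting error only. The share averaged 4.78% ± 0.533 (SD, n = 4) over the HADA libraries and 1.48% ± 1.33 (SD, n = 4) over the control libraries, or 0.834% ± 0.380 (SD, n = 3) in control without replicate 1. Counts of calls and fold changes of named members are therefore given with and without control replicate 1. A lower share of cells rich in these transcripts and less of the transcripts per cell cannot be told apart in bulk libraries.

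**Figure D1:**
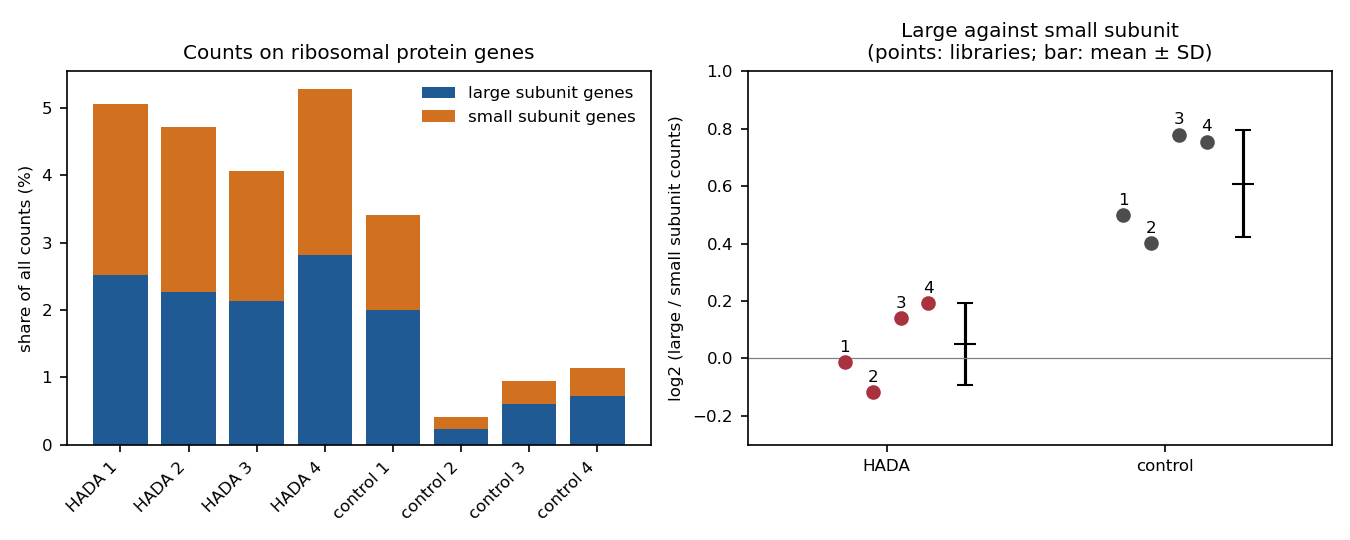
Left, the share of all counts (%) on large and small subunit ribosomal protein genes, stacked, in each library. Right, the log2 ratio of large to small subunit counts, with a numbered point per library and the mean ± SD of each group; all HADA libraries lie below all control libraries, control replicate 1 included.

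Other measures moved with this share. Mitochondrially encoded genes took 7.59%, 5.86%, 6.33% and 5.02% of counts in HADA replicates 1 to 4 and 3.81%, 0.636%, 1.88% and 2.44% in control replicates 1 to 4. Olfactory and vomeronasal receptor genes, which T cells are not known to use, took 0.217%, 0.229%, 0.134% and 0.0936% in the HADA libraries and 0.0778%, 0.914%, 0.446% and 0.196% in the control libraries. Control replicate 2 had the largest receptor share and the smallest ribosomal protein share of the 8 libraries, and control replicate 1 the smallest receptor share. The part of these measures, and of depth, in the differences between groups was not tested.

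Of the 81 members, 75 passed the filter on low counts. Rpl24, Rpl35, Rpl35a, Rps10 and Rps4l were at 0 or 1 counts in each library, and between 86.5% and 100% of their exonic bases lie inside the spans of other genes, where reads were not counted. Their values say nothing of their expression. Rpl10l, an intronless copy of Rpl10 known from testis, had at most 7 counts in any library. Rpl13a and Rpl23a were tested although over 50% of their exonic bases (65.2% and 55.6%) are covered in the same way. Named processed pseudogenes exist for 63 of the members, and how reads shared with such copies were counted is not stated, so single values are uncertain to that extent.

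Levels of different genes were compared as CPM per kilobase of the counted span, averaged over the 8 libraries. Over the tested members this level had a median of 99.1, from 0.224 for Rpl3l to 1090 for Rps27. Rps27, a zinc-binding protein of the small subunit, had the highest level, and Rplp1 (481), Rpl41 (382), Rpl13 (339) and Rps18 (321) were also high. The counted spans include introns, and per kilobase of exon the highest level was that of Rps14 (2983), whose counted span of 31449 bases is the longest of the family, followed by Rps27 (2494) and Rps18 (2298).

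The groups were compared in 21991 genes by the quasi-likelihood test of edgeR with Benjamini-Hochberg adjustment, and a gene was called at an adjusted p below 0.05 with a log2 fold change beyond 1. Of the 75 tested members, 1 was called higher in HADA, Rps14, against 1.65% of all genes tested (363 genes). No member was called lower (0 of 75), against 0.477% of all genes (105 genes), and 0 members were lower at an unadjusted p below 0.05, against 14.7% of all genes, or with DESeq2, against 19.3%. At an unadjusted p below 0.05 and a log2 fold change above 1, 45 members were higher, against 12.0% of all genes tested. With DESeq2, 49 of the 75 were called higher, against 11.2% of all genes. Without control replicate 1, edgeR called 51 of the 75 higher, 30 of the large and 21 of the small subunit, against 15.5% of all genes, and 0 lower, against 19.7%.

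All 75 fold changes were positive with TMM and with DESeq2's size factors, while 2 of 77 were negative with no filter, 1 without HADA replicate 2 (Rpl3l) and 33 of 75 relative to the family's own total, given further on. The median log2 fold change was 2.33 over the 75 members and 0.01 over all genes tested. It was 2.29 over 45 large and 2.44 over 30 small subunit genes. The range ran from 0.93 for Rpl5 to 4.56 for Rps29, and the adjusted p-values from 0.0323 to 0.634. Without control replicate 1 the median was 3.51 for the members and -0.02 for all genes. By subunit it was then 3.18 for the large and 3.82 for the small subunit genes.

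Every HADA library lay above every control library for 54 of the 75 members, against 9.13% of all genes tested, and the reverse held for 0 members, against 5.70%. These 54 were 30 large and 24 small subunit genes. For 15 of the 21 others the groups separated once control replicate 1 was left out, which gave 69 of 75, against 18.4% of all genes. Rpl39l, Rpl3l, Rpl4, Rps25 and Rps3 were among those that overlapped even then. Control replicate 1 was the highest control library for 69 members, and control replicate 2 the lowest for 68.

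**Figure D2:**
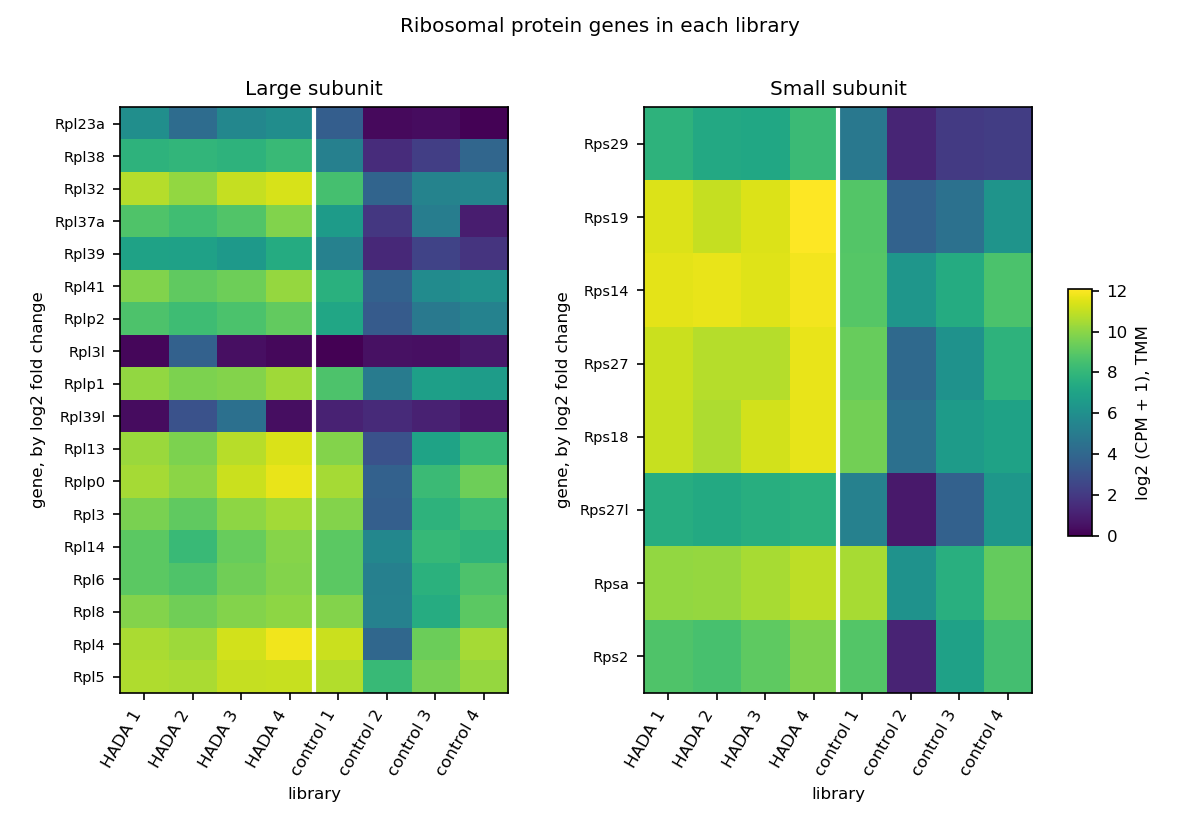
Level of members described in the text in each library as log2 (CPM + 1), TMM-scaled, for the large subunit (left) and the small subunit (right), ordered by log2 fold change, with a white line between HADA and control libraries. Control replicate 1 is the brightest control column for most of them.

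Among proteins of the small subunit, Rps14, which sits on the platform of the subunit and is reduced in the 5q- syndrome of people, had 3054, 3320, 2927 and 3802 CPM in HADA replicates 1 to 4 and 484, 81.9, 172 and 410 CPM in control replicates 1 to 4. The lowest HADA library was far above the highest control library, and the HADA libraries lay close together. Its log2 fold change was 3.51 (SE 0.73, adjusted p = 0.0323, Benjamini-Hochberg adjustment of edgeR's quasi-likelihood test; SE, standard error), higher in 4 of 4 HADA libraries. Rps14 (ENSMUSG00000024608) lies on chromosome 18 of GRCm39 from 60880170 to 60911618. The call held in 2 of 8 fits with a library left out, those without control replicate 1 (adjusted p = 0.0101) and without control replicate 2 (adjusted p = 0.0275). Over all 14 alternatives the log2 fold change ran from 3.01 to 4.003 and the adjusted p from 3.13e-07 to 0.143.

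In the fold changes below, values after "or" are the log2 fold change and adjusted p of the same edgeR test without control replicate 1.

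Rps29, a short zinc-binding protein of the head of the small subunit, had the largest fold change of the family. It had 222, 157, 147 and 298 CPM in HADA replicates 1 to 4 and 27.96, 1.35, 3.21 and 3.65 CPM in control replicates 1 to 4. Control replicate 1 stood above the other control libraries and below every HADA library. The log2 fold change was 4.56 (SE 1.09, adjusted p = 0.0529 from the edgeR test), outside the threshold. Without control replicate 1 it was 6.36 (adjusted p = 0.00465).

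Rps19, needed to mature the small subunit and often mutated in Diamond-Blackfan anaemia, had 2801, 2088, 2786 and 4363 CPM in HADA replicates 1 to 4 and 458, 13.0, 22.1 and 76.1 CPM in control replicates 1 to 4. The groups were apart, and control replicates 2 to 4 were all below 100 CPM. For Rps19 the log2 fold change was 4.41 (SE 1.12, adjusted p = 0.0614 from the edgeR test, or 6.45 and 0.00609 without control replicate 1). Rps27 had 2226, 1708, 1724 and 3276 CPM in the HADA libraries and 611, 16.8, 71.5 and 221 CPM in the control libraries, with a log2 fold change of 3.28 (SE 0.98, adjusted p = 0.0916, or 4.54 and 0.0156 without control replicate 1). Rps18, which lies in the head near the initiator tRNA, had 2131, 1557, 2445 and 3196 CPM in HADA and 721, 20.9, 97.7 and 125 CPM in control, with a log2 fold change of 3.28 (SE 0.98, adjusted p = 0.0927, or 4.96 and 0.00860 without control replicate 1). For both genes the groups did not overlap, and control replicate 1 was the highest control library.

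At the other end of the small subunit, Rps2, a protein at the mRNA entry channel, had 430, 385, 538 and 849 CPM in HADA replicates 1 to 4 and 463, 1.32, 121 and 360 CPM in control replicates 1 to 4. Control replicate 1 lay above HADA replicates 1 and 2, so the groups overlapped. The log2 fold change of 1.22 (SE 1.10, adjusted p = 0.459 from the edgeR test, or 1.88 and 0.284 without control replicate 1) was about the size of its error. Rpsa, which also gives rise to the laminin receptor, had 1121, 1169, 1474 and 1911 CPM in HADA and 1463, 69.8, 194 and 603 CPM in control, and here too control replicate 1 lay within the HADA range. For Rpsa the log2 fold change was 1.29 (SE 0.85, adjusted p = 0.319, or 2.40 and 0.0505 without control replicate 1).

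In the large subunit the largest fold changes were those of Rpl23a, Rpl38, Rpl32 and Rpl37a. Rpl38, whose loss in mice alters the translation of Hox mRNAs and the pattern of the skeleton, had 226, 248, 221 and 290 CPM in HADA replicates 1 to 4 and 37.3, 1.88, 3.77 and 14.95 CPM in control replicates 1 to 4. The HADA libraries were within a narrow range and all above control. Its log2 fold change was 4.11 (SE 1.02, adjusted p = 0.0578 from the edgeR test, or 5.27 and 0.0100 without control replicate 1).

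Rpl32, often taken as a reference gene in quantitative PCR, had 1717, 1120, 2099 and 2623 CPM in the HADA libraries and 362, 14.1, 41.8 and 43.9 CPM in the control libraries, with a log2 fold change of 4.04 (SE 1.04, adjusted p = 0.0630, or 5.95 and 0.00498 without control replicate 1). Rpl37a, a zinc-binding protein, had 428, 335, 450 and 903 CPM in HADA and 97.6, 2.91, 33.6 and 0.985 CPM in control, with a log2 fold change of 3.98 (SE 1.26, adjusted p = 0.103, or 5.53 and 0.0224 without control replicate 1). Both had their groups apart, with control replicate 1 highest among the controls. Rpl23a, which lies at the exit of the peptide tunnel, had 61.5, 18.4, 47.0 and 60.5 CPM in HADA and 11.2, 0.219, 0.314 and 0.0579 CPM in control, on 18, 7, 9 and 1 counts in the control libraries. Its log2 fold change of 4.18 (SE 1.52, adjusted p = 0.129, or 7.96 and 0.00465 without control replicate 1) rests on the uncovered part of the gene.

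Rpl41, which encodes a peptide of 25 amino acids, the shortest of the family, had 878, 568, 683 and 1170 CPM in HADA and 205, 12.7, 55.1 and 67.3 CPM in control, with a log2 fold change of 3.28 (SE 0.88, adjusted p = 0.0720, or 4.31 and 0.0109 without control replicate 1). For Rpl41 the groups were apart. Rpl13 had 1230, 847, 1764 and 2675 CPM in HADA and 923, 7.14, 126 and 276 CPM in control, where control replicate 1 lay above HADA replicate 2. For Rpl13 the log2 fold change was 2.29 (SE 1.07, adjusted p = 0.191, or 3.68 and 0.0422 without control replicate 1).

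The smallest fold changes in the large subunit belonged to Rpl5, Rpl4, Rpl8, Rpl6 and Rpl14. Rpl5, which with Rpl11 and the 5S rRNA forms a particle that can bind Mdm2, had 1615, 1511, 2068 and 2130 CPM in HADA replicates 1 to 4 and 1647, 282, 771 and 1142 CPM in control replicates 1 to 4. Control replicate 1 reached the HADA level and the groups overlapped. Its log2 fold change was 0.93 (SE 0.66, adjusted p = 0.344 from the edgeR test, or 1.44 and 0.0956 without control replicate 1), and 46.6% of its exonic bases lie inside other gene spans. Rpl4, which reaches into the peptide tunnel, had 1526, 1284, 2461 and 3672 CPM in HADA and 2235, 15.2, 655 and 1422 CPM in control, with a log2 fold change of 1.05 (SE 1.004, adjusted p = 0.485, or 1.79 and 0.255 without control replicate 1). Control replicates 1 and 4 both lay above HADA replicate 2.

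Rpl8, next to the peptidyl transferase centre, had 915, 709, 912 and 1062 CPM in HADA and 926, 38.5, 180 and 536 CPM in control, with a log2 fold change of 1.10 (SE 0.85, adjusted p = 0.386, or 1.95 and 0.109 without control replicate 1). Rpl6 had 533, 427, 717 and 906 CPM in HADA and 524, 37.9, 208 and 424 CPM in control, with a log2 fold change of 1.11 (SE 0.79, adjusted p = 0.349, or 1.64 and 0.150 without control replicate 1). Rpl14 had 535, 295, 619 and 943 CPM in HADA and 534, 46.7, 275 and 234 CPM in control, with a log2 fold change of 1.13 (SE 0.78, adjusted p = 0.336, or 1.81 and 0.0989 without control replicate 1). In all of Rpl8, Rpl6 and Rpl14, control replicate 1 lay inside the HADA range and control replicates 2 to 4 below its lowest library.

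**Figure D3:**
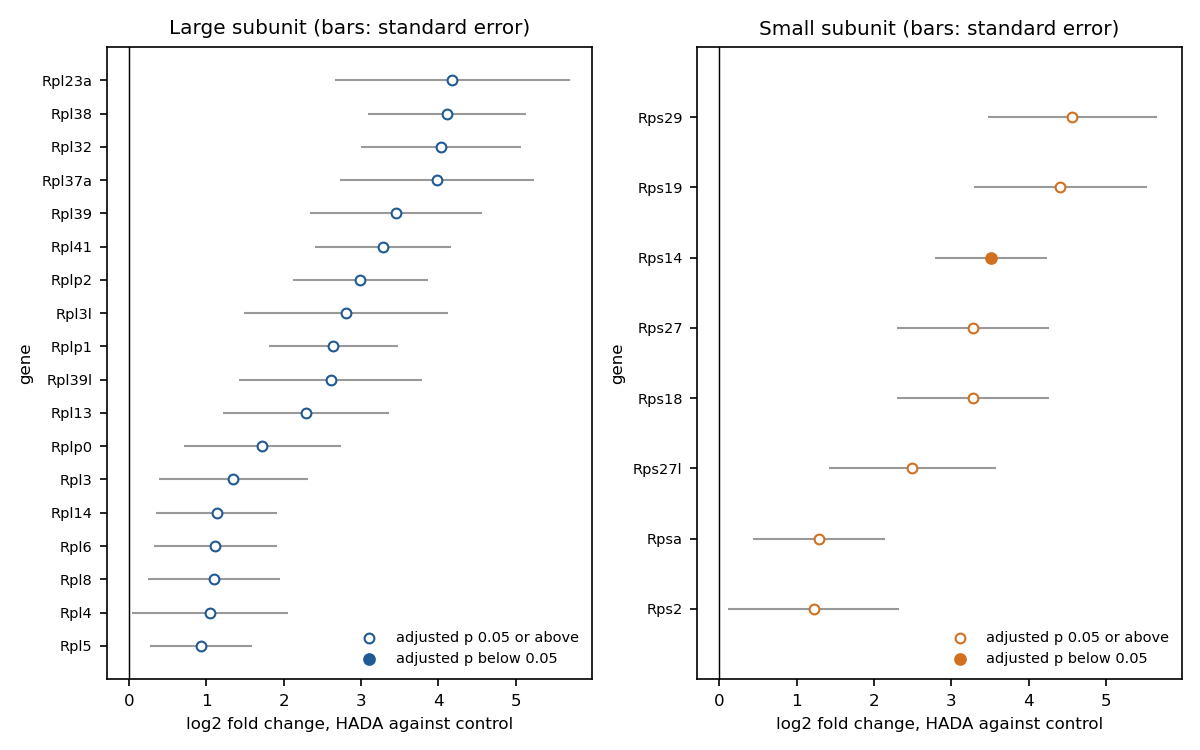
Log2 fold change of HADA against control for members of the large and small subunit described in the text, with its standard error (SE), from edgeR's quasi-likelihood test on 4 libraries per group. Every estimate shown is above 0 with TMM, while relative to the family total some are negative, and the filled point, Rps14, is the only one with an adjusted p below 0.05.

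The stalk of the large subunit, which recruits elongation factors, is built from Rplp0 at its base and dimers of Rplp1 and Rplp2. Rplp0 had 1421, 1004, 2202 and 3320 CPM in HADA replicates 1 to 4 and 1416, 12.4, 304 and 680 CPM in control replicates 1 to 4, with a log2 fold change of 1.72 (SE 1.02, adjusted p = 0.270 from the edgeR test, or 2.69 and 0.102 without control replicate 1). Rplp1 had 1134, 824, 910 and 1305 CPM in HADA and 425, 31.4, 111 and 102 CPM in control, with a log2 fold change of 2.64 (SE 0.83, adjusted p = 0.103, or 3.80 and 0.0101 without control replicate 1). Rplp2 had 418, 321, 407 and 588 CPM in HADA and 140, 10.2, 28.2 and 40.6 CPM in control, with a log2 fold change of 2.99 (SE 0.88, adjusted p = 0.0878, or 4.16 and 0.00963 without control replicate 1). The groups overlapped for Rplp0, through control replicate 1, and were apart for Rplp1 and Rplp2.

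Of the 5 paralogues with the suffix l, 3 were tested. Rps27l, a p53-inducible copy of Rps27, had 182, 161, 194 and 219 CPM in HADA replicates 1 to 4 and 38.5, 0.751, 12.3 and 82.1 CPM in control replicates 1 to 4, apart between groups. For Rps27l the log2 fold change was 2.50 (SE 1.08, adjusted p = 0.169, or 2.67 and 0.132 without control replicate 1), beside 3.28 for Rps27. Rpl39l, known from testis, had 0.316, 7.29, 21.1 and 0.361 CPM in HADA and 1.24, 1.69, 1.19 and 0.637 CPM in control, while its parent Rpl39, which lines the peptide tunnel, had 124, 119, 90.5 and 174 CPM in HADA and 39.1, 1.63, 4.44 and 2.49 CPM in control. Rpl39l was raised in HADA replicates 2 and 3 alone, and Rpl39 in all HADA libraries. Their log2 fold changes were 2.61 (SE 1.19, adjusted p = 0.184, or 2.78 and 0.155 without control replicate 1) and 3.45 (SE 1.11, adjusted p = 0.106, or 5.60 and 0.00498 without control replicate 1).

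Rpl3l, known from skeletal and heart muscle, had 0.158, 12.6, 0.413 and 0.180 CPM in HADA and 0, 0.470, 0.419 and 0.695 CPM in control. Only HADA replicate 2 stood out, with 301 counts, and its log2 fold change of 2.81 (SE 1.32, adjusted p = 0.192, or 2.80 and 0.191 without control replicate 1) rests on that library and was -0.82 without it. Its parent Rpl3 had 815, 557, 1045 and 1376 CPM in HADA and 930, 11.7, 223 and 325 CPM in control, with a log2 fold change of 1.35 (SE 0.97, adjusted p = 0.351, or 2.45 and 0.0927 without control replicate 1).

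To compare the subunits, counts were summed over the large and over the small subunit genes in each library. The log2 ratio of large to small was -0.01, -0.12, 0.14 and 0.19 in HADA replicates 1 to 4 and 0.50, 0.40, 0.78 and 0.76 in control replicates 1 to 4. All HADA libraries lay below all control libraries, and in this measure control replicate 1 lay with the other controls. The means were 0.05 ± 0.14 (SD, n = 4) and 0.61 ± 0.19 (SD, n = 4), a difference of -0.56, and -0.60 without control replicate 1. Without Rpl4 and Rps14, the members with the most counts in each subunit, the difference was -0.43. As a difference of mean log2 CPM, in which abundant and scarce genes weigh the same, it was -0.17, with HADA libraries from -0.72 to -0.59 and control libraries from -0.56 to -0.34.

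Within the family, the counts were less concentrated in a few genes in HADA. The 5 members with the most counts held 22.1%, 22.9%, 21.8% and 21.8% of the ribosomal protein counts in HADA replicates 1 to 4 and 25.8%, 39.1%, 31.6% and 34.1% in control replicates 1 to 4, with no overlap. Rpl5 held 2.87%, 3.33%, 3.42% and 2.52% of them in the HADA libraries and 5.25%, 15.2%, 10.3% and 7.98% in the control libraries. Rps19 went the other way, with 4.97%, 4.60%, 4.61% and 5.17% in HADA and 1.46%, 0.702%, 0.296% and 0.532% in control.

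A second fit took the summed ribosomal protein count of each library as its size, so that a fold change says how a gene moved relative to the family. Because the members themselves set this size, their fold changes lie near 0 as a set by construction. Their median was 0.29, against -3.44 over all genes tested. The shares of all genes on this scale, here and below, follow in part from how it was set and are no measure of the members. By the same test and thresholds 1 member was called higher relative to that total, Rps19, against 0.332% of all genes tested, and 0 were called lower, against 54.8%. At an unadjusted p below 0.05, 3 members were higher, against 0.518% of all genes, and 0 lower, against 59.9%. With DESeq2, 6 members were higher, against 0.728% of all genes, and 1 lower, against 61.8%. The relative log2 fold change of Rps19 was 2.69 (SE 0.97, adjusted p = 0.0142, Benjamini-Hochberg adjustment of edgeR's quasi-likelihood test), higher in 4 of 4 HADA libraries. Over 12 alternatives it ran from 2.43 to 3.25 and the adjusted p from 0.000416 to 0.0824. The call was lost without HADA replicate 4 (adjusted p = 0.0516), without control replicate 3 (adjusted p = 0.0561) and with the replicate number as a block (adjusted p = 0.0824). Rps19 (ENSMUSG00000040952) lies on chromosome 7 of GRCm39 from 24583796 to 24589231, and 14 pseudogenes carry its name.

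On this scale the median was -0.10 for the large and 0.45 for the small subunit genes. Next to Rps19 stood Rpl23a (2.57), Rps29 (2.54), Rpl38 (2.14) and Rpl32 (2.12), and at the other end Rpl5 (-1.67), Rps25 (-1.67), a protein of the small subunit head, and Rps3 (-1.54), at the mRNA entry channel. With all 8 libraries none of these passed the threshold by the edgeR test, while DESeq2 called Rpl23a, Rps29, Rpl38 and Rpl32 higher and Rpl5 lower. Without HADA replicate 2, edgeR called Rpl3l lower. Without control replicate 1, Rpl13a, Rpl18, Rpl23a, Rpl32, Rps18, Rps19 and Rps29 were called higher, 7 members against 1.17% of all genes. In the same fit Rpl5, Rps25 and Rps3 were called lower, 3 members against 66.3% of all genes. Of the exonic bases of Rps25, 43.4% lie inside other gene spans, where reads were not counted.

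**Figure D4:**
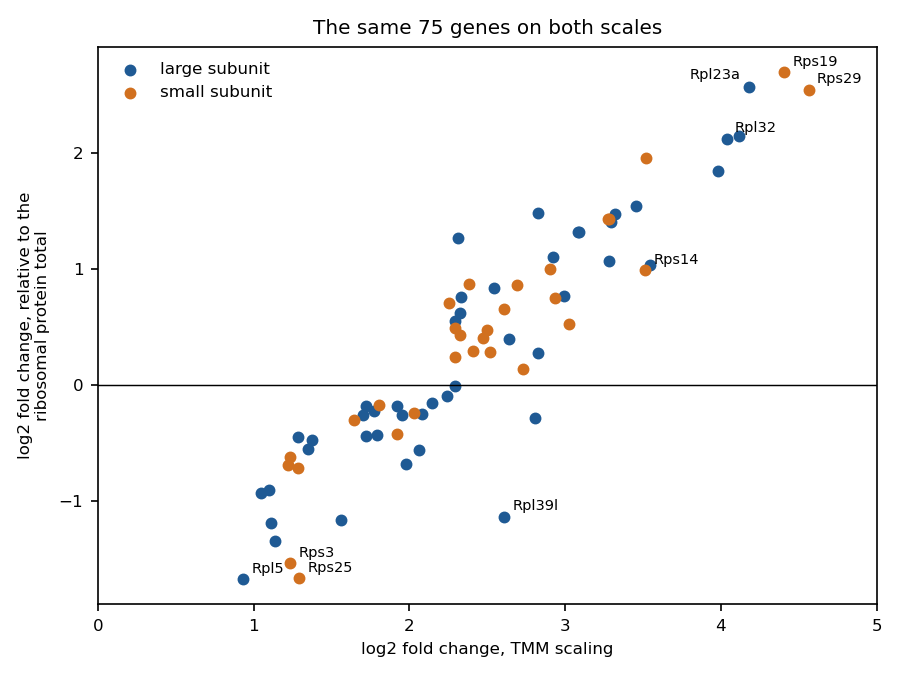
Log2 fold change of each tested member with TMM scaling (horizontal axis) and relative to the summed ribosomal protein count (vertical axis), coloured by subunit. Rps19 is highest on the relative scale at 2.69, and Rpl5 and Rps25 are lowest at -1.67.

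Among the members, fold changes were larger for short proteins. The 25 shortest members, with 75 to 396 coding bases, had a median log2 fold change of 2.90 and 22 with groups apart. The 25 in the middle had 2.38 and 21, and the 25 longest, with 582 to 1257 coding bases, 1.81 and 11. Without control replicate 1 these medians were 4.31, 3.30 and 2.63. Other protein-coding genes with a mean above 20 CPM were taken in the same ranges of length, a comparison chosen after the data were seen. Their medians were 2.25 over 364 short, 1.49 over 473 middle and 1.08 over 2189 long genes, and 3.31, 2.24 and 1.69 without control replicate 1. With all 8 libraries the groups were apart for 168 of the 364, 107 of the 473 and 273 of the 2189. Over all other tested protein-coding genes, with no limit on CPM, the medians were 1.38 over 761 short, 0.93 over 984 middle and 0.19 over 5766 long genes. Over genes longer than any member the median was 0.55 for 4174 genes above 20 CPM and 0.22 for 8816 genes with no limit, or 0.89 and 0.42 without control replicate 1. The points are genes of the same 8 libraries and are no independent replicates, and the part of RNA quality or of size selection in this relation was not tested.

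**Figure D5:**
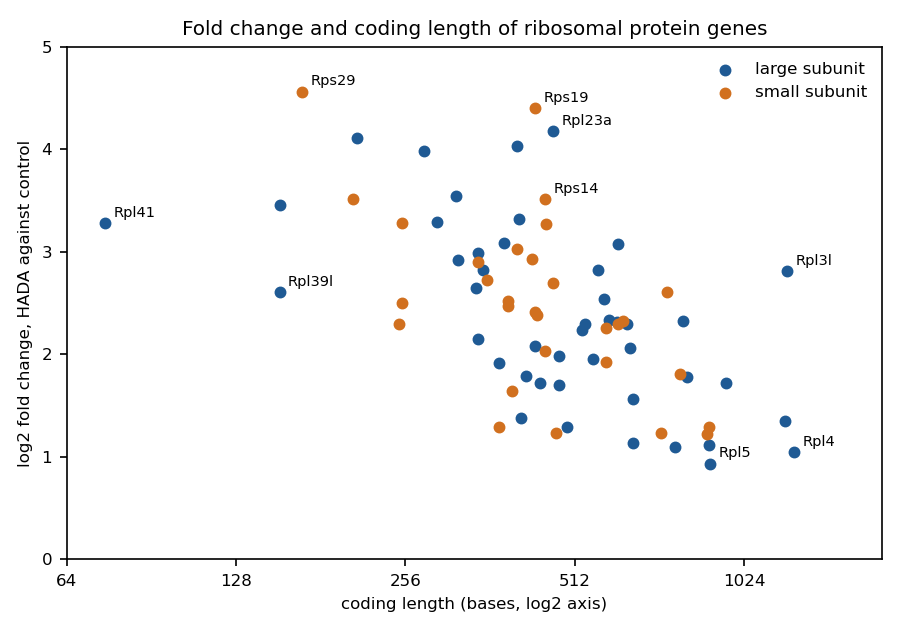
Log2 fold change of HADA against control for each of the 75 tested members against its coding length in bases (log2 axis), coloured by subunit. The shortest members lie mostly above 2 and the longest mostly below, with Rpl3l, a gene of low counts, as an exception.

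What the members share beyond their name was looked for at the annotated transcript start. RefSeq promoter windows of GRCm38.p6, from 250 bases before to 50 after the start, were found for 60 of the 81 members. A start with C followed by at least 4 bases of C or T occurred in 13 of the 60 (21.7%), against 3.01% of 27025 gene symbols in the same table. Of those 13, 10 were tested, with a median log2 fold change of 2.80, beside 2.31 for the 45 tested members without such a start. An annotated start can be some bases off the start in use, so that a missing match is no sign of a missing motif. Below are 30 bases around the start, with the run of C and T that begins at the start in capitals, for the members described above that hold it. In GRCm38.p6 they are chr9:120571507-120571536 for Rpl14, chr11:114668570-114668599 for Rpl38 and chr7:141447641-141447670 for Rplp2 on the plus strand, and chr17:33955646-33955675 for Rps18 and chr3:90213629-90213658 for Rps27 on the minus strand.
Rpl14: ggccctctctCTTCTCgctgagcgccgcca
Rpl38: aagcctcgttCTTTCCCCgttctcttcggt
Rplp2: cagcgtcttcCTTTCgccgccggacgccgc
Rps18: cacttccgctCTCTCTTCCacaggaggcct
Rps27: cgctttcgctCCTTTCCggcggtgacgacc
Rpl38, with a run of 8, and Rpl14, with a run of 6, stood at opposite ends of the fold changes of the large subunit.

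Ribosomal proteins whose names fall outside the rule were looked at beside the members. Of 6 listed genes 5 were tested, with a median log2 fold change of 3.47. By edgeR 0 of the 5 were called higher, against 1.65% of all genes, and 0 lower, against 0.477%. At an unadjusted p below 0.05, 4 were higher, against 12.0%, and by DESeq2 4 were higher, against 11.2%. With control replicate 1 left out, edgeR called 4 of the 5 higher, against 15.5% of all genes, and 0 lower, against 19.7%. The median was then 4.61. Fau, which encodes Rps30 fused to a ubiquitin-like protein, had 585, 426, 672 and 941 CPM in HADA replicates 1 to 4 and 212, 5.92, 46.2 and 133 CPM in control replicates 1 to 4. Its groups were apart (log2 fold change 2.73, SE 0.95, adjusted p = 0.120). Rack1, a scaffold on the small subunit, had 1254, 963, 1198 and 1445 CPM in HADA and 1138, 186, 373 and 960 CPM in control and overlapped (log2 fold change 0.87, SE 0.69, adjusted p = 0.400). Rpl22l1, a paralogue of Rpl22, had 128, 131, 97.6 and 87.7 CPM in HADA and 32.9, 0.313, 1.36 and 0 CPM in control (log2 fold change 3.75, SE 1.63, adjusted p = 0.172). Rps3a1, added after its values were seen because it encodes a small subunit protein missed by the name rule, had 1608, 1414, 1819 and 2035 CPM in HADA and 895, 362, 410 and 869 CPM in control (log2 fold change 1.44, SE 0.61, adjusted p = 0.166), with the groups apart.

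Other TOP mRNAs, which share the translational control of the members, had a smaller median difference. Of 16 listed and tested, 0 were called by edgeR, against 1.65% of all genes higher and 0.477% lower. Also 0 passed at an unadjusted p below 0.05, against 12.0% and 14.7%, and 0 by DESeq2, against 11.2% and 19.3%, with a median log2 fold change of 0.74 and 1 gene with groups apart, against 9.13% of all genes. Eef1a1, the elongation factor that brings tRNA to the ribosome, had 2126, 1516, 3791 and 4648 CPM in HADA replicates 1 to 4 and 4063, 145, 1416 and 2917 CPM in control replicates 1 to 4 (log2 fold change 0.50, SE 0.84, adjusted p = 0.697). Tpt1 had 2635, 2590, 1951 and 2630 CPM in HADA and 1945, 531, 834 and 1872 CPM in control (log2 fold change 0.92, SE 0.62, adjusted p = 0.327). Pabpc1, the poly(A)-binding protein, had 951, 1051, 1319 and 1554 CPM in HADA and 2084, 158, 433 and 1291 CPM in control (log2 fold change 0.30, SE 0.77, adjusted p = 0.806). Only Tpt1 had its groups apart, by a small margin, and without control replicate 1 the median of the list was 1.34, with 2 of 16 called higher, against 15.5% of all genes.

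Of 32 ribosome biogenesis genes, all tested, 0 were called in either direction by edgeR, against 1.65% of all genes higher and 0.477% lower. Of the 32, 1 in each direction passed at an unadjusted p below 0.05, against 12.0% and 14.7%. By DESeq2 it was also 1 in each, against 11.2% and 19.3%. Their median log2 fold change was 1.12, and 2.11 without control replicate 1, where 10 of the 32 were called higher, against 15.5% of all genes, and 1 lower, against 19.7%. Ncl, a nucleolar chaperone of rRNA, had 171, 370, 478 and 443 CPM in HADA and 433, 44.0, 261 and 1146 CPM in control, with overlap (log2 fold change -0.37, SE 0.87, adjusted p = 0.788). Npm1, also nucleolar, had 451, 429, 590 and 760 CPM in HADA and 464, 44.8, 157 and 381 CPM in control, with overlap (log2 fold change 1.09, SE 0.77, adjusted p = 0.345). Rrn3, which recruits RNA polymerase I, had 51.0, 52.1, 97.2 and 124 CPM in HADA and 103, 319, 399 and 1488 CPM in control (log2 fold change -2.83, SE 0.89, adjusted p = 0.102), with overlap through control replicate 1.

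Of 14 regulators of TOP mRNAs in the mTOR pathway, all tested, 0 were called in either direction by edgeR. The shares of all genes were 1.65% higher and 0.477% lower. Of the 14, 2 in each direction passed at an unadjusted p below 0.05, against 12.0% and 14.7%. By DESeq2, 1 of the 14 was higher and 2 were lower, against 11.2% and 19.3%. Their median log2 fold change was 0.30, and 1.38 without control replicate 1, where 3 of the 14 were called higher, against 15.5% of all genes, and 1 lower, against 19.7%. Rheb, which activates mTOR, had 195, 177, 316 and 260 CPM in HADA and 313, 10.4, 7.27 and 177 CPM in control. Rps6kb1, the kinase of ribosomal protein S6, had 93.4, 108, 241 and 149 CPM in HADA and 140, 27.1, 178 and 185 CPM in control. Larp4, which binds poly(A) tails, had 204, 78.2, 124 and 152 CPM in HADA and 82.0, 21.6, 66.2 and 250 CPM in control. For all of Rheb, Rps6kb1 and Larp4 the groups overlapped.

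Mitochondrial ribosomal proteins, which serve the separate ribosome of that organelle, had a median log2 fold change of 1.59 over 72 tested of 78 genes, and 2.82 without control replicate 1. Of the 72, Mrps11 and Mrps31, named after their values were seen, were called higher by edgeR, against 1.65% of all genes, and 0 lower, against 0.477%. At an unadjusted p below 0.05, 16 were higher, against 12.0% of all genes, and 0 lower, against 14.7%. By DESeq2, 21 were higher, against 11.2%, and 0 lower, against 19.3%. Without control replicate 1, edgeR called 31 higher, against 15.5% of all genes, and 0 lower, against 19.7%. With all libraries 20 had every HADA library above every control library, against 9.13%. Mrps14 had 273, 279, 418 and 341 CPM in HADA and 176, 2.25, 1.54 and 1.51 CPM in control, where control replicate 1 stood far above the other controls. Mrpl42 had 217, 140, 313 and 279 CPM in HADA and 167, 3.26, 33.0 and 344 CPM in control, and Mrps24 had 135, 134, 251 and 209 CPM in HADA and 44.7, 0.720, 0.349 and 130 CPM in control. The groups were apart for Mrps14 and Mrps24 and overlapped for Mrpl42.

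Cell type markers were read in the same libraries as summed CPM per list. The 7 Treg and T cell markers, led by Cd3d, summed to 2150, 1495, 3345 and 3694 in HADA replicates 1 to 4 and 1194, 285, 618 and 730 in control replicates 1 to 4. Foxp3, the defining factor of Tregs, had no counts in the 8 libraries, its span being covered to 100%, so that it cannot serve as a check. Il2ra, which encodes CD25, had 309, 163, 287 and 748 CPM in HADA and 178, 10.5, 7.23 and 59.5 CPM in control. The sums for T cell markers were higher in every HADA library than in any control library, while for Il2ra control replicate 1 lay above HADA replicate 2.

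The 4 B cell markers, led by Cd79a, summed to 1049, 850, 2239 and 2904 CPM in HADA and 2271, 75.1, 296 and 993 CPM in control, with Ms4a1 at 0 throughout, its span covered to 100%. The 6 myeloid markers, led by Lyz2, summed to 1315, 3280, 3886 and 1102 CPM in HADA and 1758, 47.8, 286 and 1163 CPM in control, with S100a8 and S100a9 at 0 in control replicate 1 and Itgam at 0 in all libraries but HADA replicate 1, with 99.9% of its span covered. The 4 platelet markers, led by Ppbp, summed to 1661, 267, 1131 and 1361 CPM in HADA and 470, 42.3, 53.7 and 317 CPM in control, with none at 0. All of these sums were lowest in control replicate 2, as the ribosomal protein share was, and all overlapped between groups.

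The 5 markers of CD8 and NK cells, led by Nkg7, summed to 34.4, 135, 148 and 936 CPM in HADA and 28.6, 4.98, 3.07 and 41.7 CPM in control, with Klrb1c at 0 in HADA replicate 1 and control replicate 1, Cd8a in control replicate 1 and Nkg7 in control replicate 3. The 6 erythroid markers, led by Hba-a1, summed to 2806, 999, 145 and 171 CPM in HADA and 28314, 1025, 4139 and 7307 CPM in control, with Alas2 at 0 throughout, its span covered to 100%. Both sums overlapped between groups. Of 27 marker genes tested, 1 was called by the edgeR test, against 1.65% of all genes higher, Cd8b1, part of the CD8 receptor, higher in HADA (log2 fold change 4.97, adjusted p = 0.0301 with Benjamini-Hochberg adjustment), and it was named after its value was seen. The part of the mix of sorted cells in the differences of the members was not tested.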

How the data were processed

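RNA-seq of sorted peripheral blood Tregs was read from the deposited gene table, in which the authors gave raw counts for 56980 genes in 8 libraries, 4 HADA and 4 control. The authors made it with FastQC, Trimmomatic, STAR to GRCm39 and featureCounts, with no versions and no strand or multi-mapping settings stated. The lengths given are those of whole gene spans, so that intronic reads were counted and reads in overlapping spans were not. Library totals ran from 1477431 to 28240337 counts, and shares carry 95% Wilson intervals for counting error.

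Symbols, coding lengths and overlaps came from GENCODE vM39, and transcript starts from RefSeq on GRCm38.p6. Genes kept by edgeR's filterByExpr (21991) were scaled by TMM and tested with edgeR 4.0.16 in R 4.3.3, by the quasi-likelihood test with Benjamini-Hochberg adjustment over all genes tested, and called where the adjusted p was below 0.05 with a log2 fold change beyond 1. All p-values given as adjusted come from this test unless DESeq2 is named. A second fit took the summed ribosomal protein count of each library as its size. Tables were made with Python 3.11.15 and pandas 2.3.3.

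Alternatives were DESeq2's size factors, the DESeq2 1.42.0 test with its default settings, no filter on low counts and a floor of 10 counts per library. Others were no fold threshold, each library left out in turn, the replicate number as a block and scaling without mitochondrial and haemoglobin genes. The rest were members inside other gene spans left out, paralogues left out, other measures of the subunit ratio and length of exons for levels. Members and lists were chosen with earlier results of these data known. Named genes were taken from the 6 members with the highest CPM per kilobase, the 6 with the largest and the 6 with the smallest log2 fold change, called members on both scales, Rplp0, Rplp1, Rplp2, Rpsa, tested paralogues with their parents, and the 3 most abundant genes of each other list. Scores over the members, such as shares and the subunit ratio, were not tested. Reads and protein were not analysed here.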

Additional observations from a re-analysis of the deposited data

Results flagged for a closer look

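In 3 of 78 groups of 4 libraries, 1 library lay further from the others than Dixon's 95% limit, and chance alone does this in about 1 in 20 groups, or 3.9 of 78. The share of counts on small subunit genes was 1.93% in HADA replicate 3, against 2.54%, 2.46% and 2.46% in HADA replicates 1, 2 and 4. The share on named ribosomal protein pseudogenes was 0.0399% in control replicate 1, against 0.0139%, 0.0147% and 0.0174% in control replicates 2 to 4. The share on haemoglobin genes was 3.08% in control replicate 1, against 0.227%, 0.525% and 0.583% in control replicates 2 to 4. Of the 3 values 2 were in control replicate 1, which also had the smallest total.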

How the results depend on the processing

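The called members, Rps14 and, relative to the ribosomal protein total, Rps19, did not change sign under the alternatives run. Mrps11, Mrps31 and Cd8b1, also called, are given for the fit with all libraries only. The log2 fold change of Rpl3l, which was not called, went from 2.81 to -0.82 without HADA replicate 2. With the usual library sizes 0 members were called lower by edgeR under any alternative, nor by DESeq2 or at an unadjusted p below 0.05, while relative to the ribosomal protein total some were, as given below. Counts of calls depended strongly on the setting, and the cause was not tested. With the DESeq2 test, 2457 genes were higher and 4247 lower, and 49 members were higher. Requiring 10 counts in every library, with fewer genes tested, gave 93 of 8472 genes and 10 of 70 members higher. With no filter, 408 of 41823 genes were higher and 54 lower, with 0 of 77 members higher. Without mitochondrial and haemoglobin genes, 326 of 22219 genes were higher and 53 lower, with 4 of 75 members higher. DESeq2's size factors gave 281 of 21991 genes and 4 of 75 members higher.

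With 1 library left out, genes higher ran from 28 (without control replicate 3) to 3716 (without control replicate 1), genes lower from 1 to 4732, with the same libraries at both ends, and members higher from 0 (with any 1 of the HADA libraries, control replicate 3 or control replicate 4 left out) to 51 (without control replicate 1). Control replicate 1 had 1477431 counts, which limits its scarce genes.

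Relative to the ribosomal protein total, genes higher were 25 with at least 10 counts in every library and 160 with the DESeq2 test, and genes lower 23205 with no filter and 3353 with at least 10 counts. Members higher were 6 with the DESeq2 test, and members lower 1 with the DESeq2 test (Rpl5) and 1 with no filter (Rpl24). With 1 library left out, genes higher ran from 42 to 281, genes lower from 7543 to 15938, members higher from 0 to 7 and members lower from 0 to 3 (1, Rpl3l, without HADA replicate 2), where the highest counts were those without control replicate 1.

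With a replicate block, 158 genes were higher and 11 lower, 3 members were higher, and relative to the total 19 genes were higher and 272 lower, with 0 members higher. The numbers do not pair the libraries: same-numbered HADA and control libraries correlated at -0.207, 0.252, -0.081 and -0.003 after group means were removed.

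The subunit difference was -0.17 as a mean of log2 CPM in place of -0.56. The median level of the members in each library, averaged over the 8 libraries on the log2 scale, was 7.91 per kilobase of exon in place of 5.71 per kilobase of the counted span. Over all genes the median log2 fold change moved from 0.01 to -0.19 with DESeq2's size factors and -0.20 with the DESeq2 test. It was -0.35 without mitochondrial and haemoglobin genes and -0.37 with no filter. The members' median exceeded that of all genes by 2.50, 2.51, 2.77 and 2.85, in this order, in place of 2.31. Over all alternatives this excess ran from 1.85 (without control replicate 2) to 3.54 (without control replicate 1). It was 1.93 with at least 10 counts in every library.

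Of 28 fold changes of named genes, Rps19 on both scales included, 15 that had not passed the threshold did so with the DESeq2 test and 14 without control replicate 1.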
